A study of Mus musculus with 4 samples.

Results

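The Hox genes measured here were the 39 genes of the HoxA, HoxB, HoxC and HoxD clusters for which the mouse array carried a probe. They were chosen by name alone, as every measurement spot whose gene name was Hoxa, Hoxb, Hoxc or Hoxd followed by a number and nothing more. This gave 44 of the 39429 probes and 39 of the 31709 genes on the array, with 11 genes in HoxA, 10 in HoxB, 9 in HoxC and 9 in HoxD, so that every protein-coding member of the mouse clusters has a probe.

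The study used mouse embryonic fibroblasts (MEFs), fibroblasts grown out from embryos, to look for genes that depend on the tumor suppressor p53 after DNA damage. There were 4 cultures: wild-type (p53+/+, WT) MEFs with no agent, WT MEFs treated with doxorubicin, p53-/- MEFs with no agent, and p53-/- MEFs treated with doxorubicin. Doxorubicin is an anthracycline that poisons DNA topoisomerase II and breaks DNA. Each condition had 1 one-colour array and all 4 arrays lay on 1 slide, so no difference below has a replicate check and none carries a p-value. The strain, the number of embryos and the passage are not given in the sources used here, nor are the dose and time of the array cultures. Embryos, passage and genotype cannot be told apart, because each genotype was represented by 1 pair of cultures.

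Hox genes encode transcription factors with a homeobox, the stretch that codes for a DNA-binding domain of helices. In each cluster the genes stand in the order in which they are used along the body, with low paralog numbers at the 3′ end active in the hindbrain and neck, and high numbers at the 5′ end active in the trunk, the tail and the ends of the limbs. Fibroblasts keep much of this code in culture, which is why the set of active Hox genes is read as a record of the position a fibroblast came from. MEFs are usually grown from much of the body and can mix several such codes. In a mixed culture, fewer cells of a position and less RNA per cell cannot be told apart.

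The probes that carry the main differences are printed because each gene below rests on them. For 34 of the 39 genes there was 1 probe, a 60-base oligonucleotide placed by the array's annotation on mouse genome build mm9. The exon or untranslated region each probe falls in was not determined. The first 30 bases of the 60 follow in lower case for Hoxc13 and Hoxa5, which rose with doxorubicin in WT MEFs, and for Hoxb13, the gene that fell most in both genotypes.
Hoxc13, chr15:102759058-102759117, plus strand: actggctcattacaaaacagtgttcttttg
Hoxa5, chr6:52152049-52152108, minus strand: gtgtaattaatgctgttgtagaggtgactt
Hoxb13, chr11:96057854-96057913, plus strand: aaatcgctttcatgagttgagctgattgtg

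A pair of probes, of Hoxb3 and Hoxc11, holds a stretch of the homeobox that was searched for. That of Hoxc11 is shown whole because a later result rests on it. Whether other probes lie elsewhere in the homeobox was not determined. The capitals mark the codons for tryptophan, phenylalanine, glutamine and asparagine of the conserved recognition helix and the first bases of the next codon, searched on the probe strand only.
Hoxc11, chr15:102787022-102787081, plus strand: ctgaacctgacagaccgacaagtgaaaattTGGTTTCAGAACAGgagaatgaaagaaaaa
The pair were 2 of the 44 Hox probes, against 11 of all 39429 probes, or 0.0279%. The longest identical run between a probe and any probe of another Hox gene had a median of 9 bases and a highest value of 11. The probes were not compared with the transcripts of other Hox genes, so these values do not show how specific they are. Hoxb3 had a further probe that lacks the stretch, at chr11:96209002-96209061, and it was the one used for this gene because it was the brighter of the pair over the arrays. Its first 30 bases, shown because this probe and the homeobox probe disagree below, are these.
Hoxb3, plus strand: tattgtattctagacaagagctgtagattt

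Most of the Hox code could be read in these cells. A probe was counted as expressed where the scanner software marked it well above background. Of the 39 genes, 36 were so marked in each culture except doxorubicin-treated p53-/- MEFs, where 33 were, and the same 33 were marked on all 4 arrays. Hoxb1, Hoxc12 and Hoxd1 were not well above background on any array. Hoxb1, a gene of the hindbrain, was printed 10 times per array, and its spots lay between 0.563% and 0.853% of the array's 75th percentile signal in untreated WT MEFs. Hoxc8, Hoxd3 and Hoxd9 were well above background in 3 conditions and not in doxorubicin-treated p53-/- MEFs. The lowest signal marked on that array was 87.1 units, against 44.3 to 57.9 on the others, and of the 3 genes Hoxc8, at 71.5 units, lay below it. All 11 HoxA genes were measured on every array.

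Signals below are given as a percentage of each array's 75th percentile signal, and compared between arrays for 1 gene at a time. A log2 ratio is the difference of their log2 values. A gene was called higher or lower at a 2-fold difference, a log2 ratio of 1. Repeated spots give a floor for the error: over 253 probes printed 10 times, the typical SD of a single spot was 0.06 on the log2 scale. For a ratio of 2 arrays this comes to 0.08, and to 0.12 where 2 ratios are subtracted. The scanner software's own error model gave wider errors for the Hox ratios, between 0.20 and 0.39. Neither contains the spread between cultures. Trp53, the gene that encodes p53 and is targeted in the p53-/- line, read 59.2% untreated and 189% treated in WT MEFs, and 23.5% and 22.4% in p53-/- MEFs. Both p53-/- cultures lay below both WT cultures, and the probe was well above background on all 4 arrays. Whether it lies in the deleted part of the gene was not determined.

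In WT MEFs, doxorubicin treatment went with lower signals for most Hox genes and with a steep rise of 1, Hoxc13. Of 36 genes measured in both WT conditions, 3 were at least 2-fold higher and 7 at least 2-fold lower, while over all 17513 genes 11.0% were higher and 10.4% lower. The median Hox log2 ratio was -0.39, against 0.01 over all genes, and 26 of the 36 were below 0. The Hox share was thus 8.33% upwards, near the background, and 19.4% downwards.

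Hoxc13, which in the skin drives keratin genes of hair and nail, read 15.9% in untreated WT, 115% in doxorubicin-treated WT, 13.8% in untreated p53-/- and 18.1% in doxorubicin-treated p53-/- MEFs. One array stood far above the other three. The log2 ratio was 2.85 in WT, a 7.22-fold difference, and 0.39 in p53-/- MEFs. Between the genotypes under doxorubicin it was -2.66, the lowest value of any Hox gene in any comparison.

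Hoxa5 and Hoxc5, paralogs of the neck and upper trunk, were the other members past 2-fold upwards in WT. Hoxa5, needed for lung development, read 24.3%, 54.4%, 53.6% and 49.1% in the same order of conditions. Untreated WT MEFs were the low sample and the other three lay together. Its log2 ratio with doxorubicin was 1.16 in WT and -0.13 in p53-/- MEFs. Hoxc5 read 22.6%, 48.2%, 25.6% and 17.7%, so that here doxorubicin-treated WT MEFs were the high sample. Its log2 ratios were 1.09 in WT and -0.53 in p53-/- MEFs. Both fell short of 2-fold when arrays were scaled to their medians, at 0.89 and 0.81 in WT. The remaining paralog of the group, Hoxb5, had ratios of -0.35 and 0.20.

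**Figure D1:**
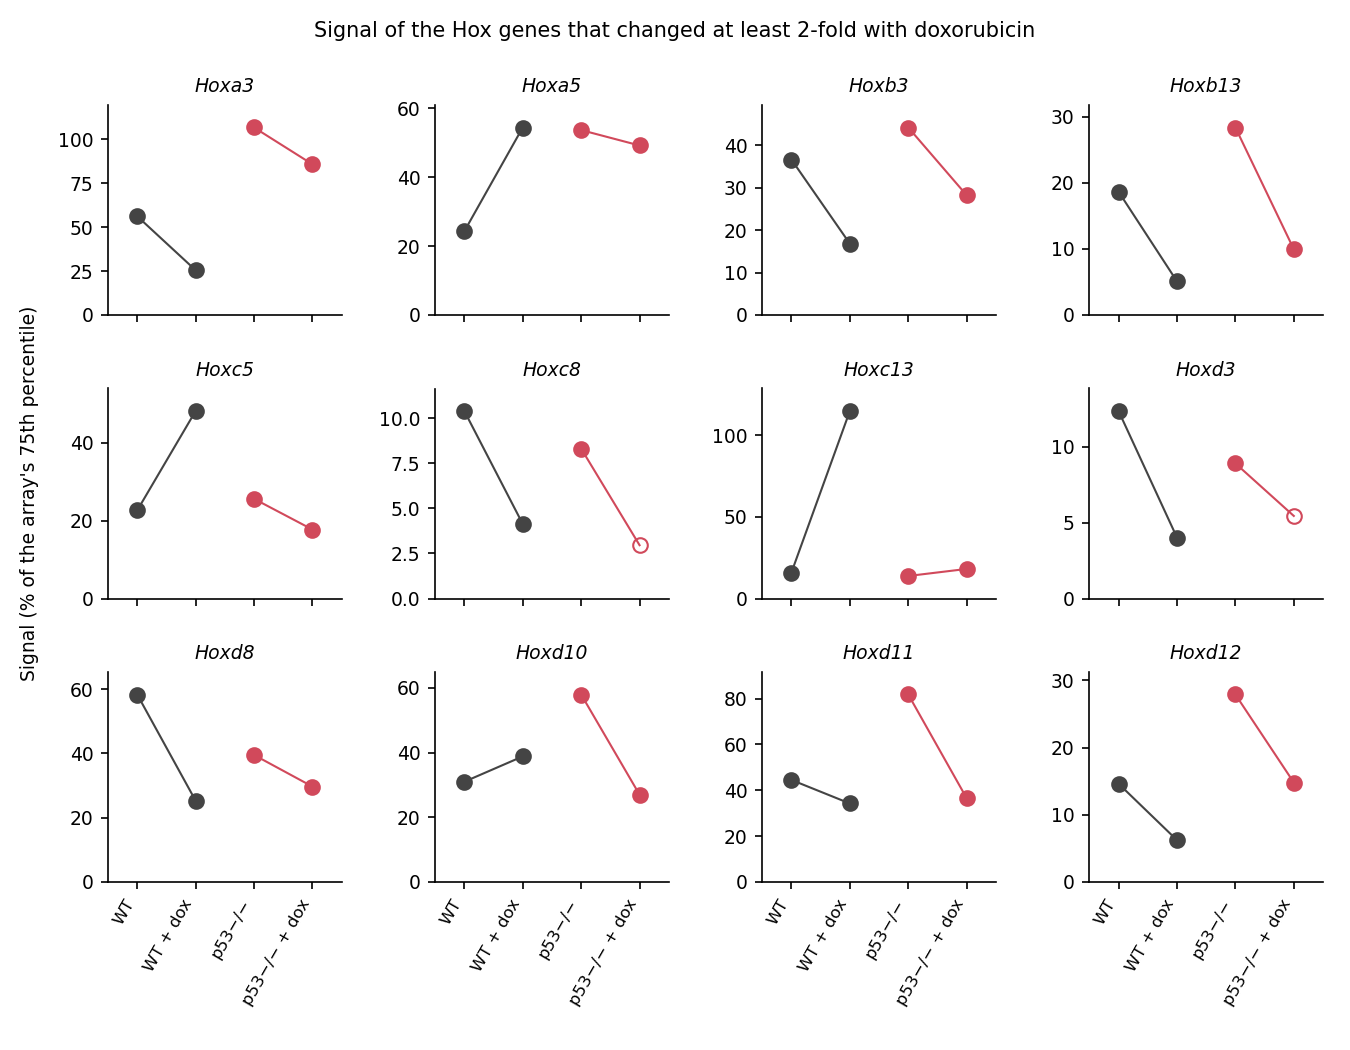
Signal of the 12 Hox genes with at least a 2-fold difference between doxorubicin-treated and untreated MEFs in either genotype, as a percentage of the array's 75th percentile (linear axis from 0, a scale of its own for each gene). Each point is 1 array, grey for WT and red for p53-/-, lines join the untreated and treated culture of a genotype, and an open point was not well above background; Hoxc13 reaches 115% in doxorubicin-treated WT MEFs only, and Hoxb13 drops in both genotypes.

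Hoxb13, the most 5′ gene of HoxB, active in the tail and the prostate, was the only member at least 2-fold lower in both genotypes among the 33 measured on all arrays. In WT MEFs it read 18.6% untreated and 5.09% treated, and in p53-/- MEFs 28.3% and 9.95%. Each treated culture lay below both untreated ones. The log2 ratios were -1.87 in WT and -1.51 in p53-/- MEFs.

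The group 3 paralogs, which pattern the neck and the organs of the pharynx, were lower in doxorubicin-treated WT MEFs as a set. Hoxa3 read 56.3% untreated and 25.5% treated in WT, and 107% and 85.8% in p53-/- MEFs. Hoxd3 read 12.3% and 4.02% in WT, and 8.90% in untreated p53-/- MEFs. The log2 ratios in WT were -1.14 for Hoxa3, -1.12 for Hoxb3 and -1.62 for Hoxd3. In p53-/- MEFs Hoxa3 was at -0.32 and Hoxb3 at -0.65, and Hoxd3, not well above background after treatment there, was at least 1.64-fold lower. The Hoxb3 value depends on the probe. The probe over the homeobox gave 0.24 in WT and -0.01 in p53-/- MEFs, on the other side of 0 in WT, and which of them follows the Hoxb3 transcript was not tested.

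The other members past 2-fold downwards in WT were Hoxc8 and Hoxd8, which pattern the thorax, and Hoxd12, a gene of the digits. Hoxc8 read 10.4% and 4.13% in WT and 8.31% in untreated p53-/- MEFs, where it was at least 2.31-fold lower after treatment. Hoxd8 read 58.3% and 25.3% in WT against 39.5% and 29.7% in p53-/- MEFs. Hoxd12 read 14.6% and 6.23% in WT, 27.9% and 14.8% in p53-/- MEFs. The treated culture was the lower one in both genotypes for all of them. With another background correction, normexp, 5 of the 7 genes (Hoxa3, Hoxb3, Hoxc8, Hoxd3 and Hoxd12) came out under 2-fold in WT MEFs, all still below 0.

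In p53-/- MEFs fewer genes passed 2-fold with doxorubicin than in WT, among the Hox genes and over the whole array. Of 33 Hox genes measured, 0 were at least 2-fold higher and 3 at least 2-fold lower. Over all 16953 genes 9.24% were higher and 6.89% lower, where WT had 11.0% and 10.4%. The count of lower Hox genes was thus near the background. The 3 were 5′ genes, too few to read a position from. The median log2 ratio was -0.39, against 0.00 over all genes. Beside Hoxb13, the 3 were Hoxd10 and Hoxd11, neighbours in the HoxD cluster that shape the forearm and hand. Hoxd10 read 31.0% and 38.8% in WT and 58.0% and 27% in p53-/- MEFs, so that the untreated p53-/- culture was the high one. Its log2 ratios were 0.33 and -1.10. Hoxd11 had 2 probes, at -1.16 and -1.05 in p53-/- MEFs but at -0.38 and 0.34 in WT. Hoxd9 and Hoxc8, a central gene, were not well above background after treatment and were at least 2.28-fold and 2.31-fold lower.

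The order of the responses along the clusters was not the same in both genotypes, a difference that could not be tested with 1 array per condition. The genes were put into 3 bins, anterior (paralog groups 1 to 4), central (5 to 8) and posterior (9 to 13). In p53-/- MEFs the median log2 ratio with doxorubicin went from 0.16 over 9 anterior genes to -0.21 over 10 central and -0.72 over 14 posterior genes. In WT MEFs the order was different, with -0.85 over 10 anterior, -0.19 over 11 central and -0.39 over 15 posterior genes. Taken gene by gene, the ratio in WT minus that in p53-/- MEFs had a median of -0.83 in the anterior, 0.01 in the central and 0.19 in the posterior bin, and was below 0 for 8 of the 9 anterior genes. Scaled to array medians, which lowers every doxorubicin ratio by 0.28 in WT and 0.30 in p53-/- MEFs and puts the medians over all genes at -0.27 and -0.30, the anterior bin in p53-/- MEFs turned to -0.14, still the highest of the 3.

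Along HoxA in p53-/- MEFs the log2 ratios were 0.21 for Hoxa2, -0.32 for Hoxa3, 0.03 for Hoxa4 and -0.13 for Hoxa5. They went on with -0.49 for Hoxa6, -0.53 for Hoxa7, -0.60 for Hoxa9, -0.86 for Hoxa10, -0.59 for Hoxa11 and -0.92 for Hoxa13. Each of these ratios was under 2-fold, and the decline ran through the cluster with breaks at Hoxa4 and Hoxa11, which lay above the gene before them. The scanner software's error of these ratios, 0.20 to 0.36, was wider than the steps from Hoxa6 to Hoxa9, so the order of such neighbours is not resolved. Spearman's rho with the paralog number was -0.95 over the 11 genes, all read from the same pair of arrays, and is given as a description. In WT MEFs the same genes gave 0.18. For all Hox genes the values were -0.54 over 33 genes in p53-/- and 0.11 over 36 genes in WT MEFs. In p53-/- MEFs HoxB gave -0.40 over 9 genes and HoxD -0.49 over 6, while HoxC went the other way, with 0.50 over 7 genes.

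**Figure D2:**
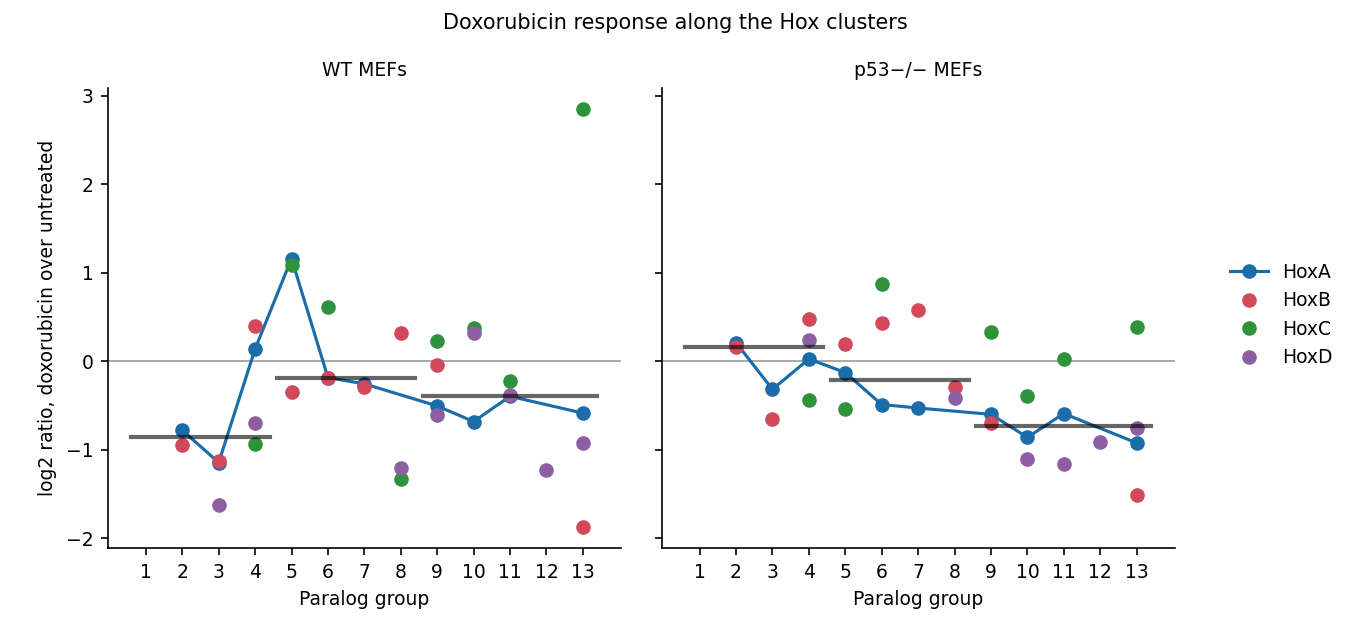
Log2 ratio of doxorubicin-treated over untreated signal against paralog group, in WT (left) and p53-/- MEFs (right), 1 point per Hox gene coloured by cluster, with a line joining the HoxA genes and black bars at the medians of groups 1 to 4, 5 to 8 and 9 to 13. A gene not reported here is in the medians but not drawn. HoxA declines from 0.21 at Hoxa2 to -0.92 at Hoxa13 in p53-/- MEFs, while in WT MEFs Hoxa2 is at -0.78, Hoxa3 at -1.14 and Hoxa5 at 1.16.

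Hoxa2 and Hoxb2, genes of the hindbrain and pharyngeal arches, were among the anterior genes with opposite signs. Hoxa2, the selector of the second pharyngeal arch, read 14.1% and 8.23% in WT and 22.2% and 25.7% in p53-/- MEFs. Hoxb2, its paralog, read 119% and 61.9% against 129% and 144%. In WT the treated culture was the lowest of the 4 for both genes and in p53-/- MEFs the treated culture was the highest. The log2 ratios were -0.78 and 0.21 for Hoxa2 and -0.95 and 0.16 for Hoxb2, and scaling to array medians put Hoxa2 and Hoxb2 below 0 in p53-/- MEFs too, at -0.08 and -0.14.

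Across the 33 genes measured on all arrays, 15 were lower after doxorubicin in both genotypes, 5 higher in both, 8 lower in WT and higher in p53-/-, and 5 the reverse. Over 16513 genes measured on all arrays, the counts in the same order were 5422, 5397, 2757 and 2937. The ratios had the same sign for 60.6% of the Hox genes and 65.5% of all genes. HoxC held 3 of the genes higher in both, among them Hoxc13: Hoxc6, a thoracic gene, had ratios of 0.62 and 0.88, and Hoxc9 had 0.23 and 0.33. Pearson's r between both ratios was 0.38 and Spearman's rho 0.35 over the 33 Hox genes, beside 0.48 and 0.46 over 16513 genes of the array. Genes are not independent replicates, so these values describe the arrays only.

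Without doxorubicin, the Hox genes were on the whole higher in p53-/- than in WT MEFs. Of 36 genes measured, 6 were at least 2-fold higher and 0 at least 2-fold lower in p53-/- MEFs, against 2.15% higher and 2.61% lower over all 17286 genes. Their median log2 ratio was 0.36, against -0.00 over all genes, and 28 of the 36 were above 0. The 6 genes were Hoxa4, Hoxa5, Hoxb6, Hoxb8, Hoxc10 and Hoxc11. Of these, Hoxc10, at 1.03, went under 2-fold with array-median scaling, quantile normalization and normexp. Hoxa5 did so, at 0.99, with normexp.

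Hoxa4, Hoxb6 and Hoxc11 were at least 2-fold higher in p53-/- MEFs under both conditions. Hoxa4, a gene of the neck vertebrae, read 4.01% and 4.43% in WT and 14.9% and 15.2% in p53-/- MEFs. Hoxb6, expressed in trunk and limb mesoderm, read 118% and 104% in WT and 278% and 375% in p53-/- MEFs. Hoxc11, a hindlimb gene, read 12.5% and 10.8% in WT and 33.0% and 33.6% in p53-/- MEFs. For each of them both p53-/- cultures lay above both WT cultures. The log2 ratios, untreated and treated, were 1.89 and 1.78 for Hoxa4, 1.23 and 1.85 for Hoxb6, and 1.4 and 1.64 for Hoxc11. Hoxa4 was dim in WT, and its untreated ratio was 1.29 with normexp. The Hoxc11 probe is the one with the homeobox stretch shown above.

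With doxorubicin in both genotypes, more Hox genes differed, as did more of all genes, where 2.15% were higher and 2.61% lower without it. Of 33 Hox genes, 10 were at least 2-fold higher in p53-/- MEFs and 2 at least 2-fold lower, against 11.9% higher and 10.3% lower over all 17892 genes. The median log2 ratio was 0.67, against 0.00 over all genes. The anterior genes had the highest median, 1.03 over 9 genes, all above 0 with 5 past 2-fold, before 0.45 over 10 central and 0.18 over 14 posterior genes. The untreated comparison had another order, with 0.27 for the anterior, 0.31 for the central and 0.71 for the posterior bin. This comparison shares its arrays with the doxorubicin comparisons above and adds no independent sample.

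Hoxa2, Hoxa3, Hoxb2, Hoxb5, Hoxb7 and Hoxd12 were among those that passed 2-fold between the genotypes only with doxorubicin, at log2 ratios of 1.64, 1.75, 1.22, 1.29, 1.17 and 1.25. With normexp Hoxd12 was under 2-fold here too, at 0.78. Hoxb7, a trunk gene, read 72.4% and 59.5% in WT and 90% and 134% in p53-/- MEFs. Hoxa5, Hoxb8 and Hoxc10 passed it only without doxorubicin. Hoxb8 read 29.0% and 36.2% in WT and 77.0% and 63.0% in p53-/- MEFs, so that both p53-/- cultures were above both WT cultures though the treated ratio was 0.80. The 2 genes lower in treated p53-/- MEFs were Hoxc13 and Hoxc5, at -2.66 and -1.44, both of them also past 2-fold upwards with doxorubicin in WT.

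All 9 measured HoxB genes were above 0 in p53-/- over WT MEFs in both comparisons, from 0.11 for Hoxb2 to 1.41 for Hoxb8 without doxorubicin, and from 0.05 for Hoxb9 to 1.85 for Hoxb6 with it. With array-median scaling this held for 8 of 9 under doxorubicin, Hoxb9 being the exception. HoxD was less uniform: Hoxd3, Hoxd4 and Hoxd8 were at -0.47, -0.24 and -0.56 without doxorubicin while Hoxd9 to Hoxd12 lay between 0.88 and 0.95. Over all clusters, 23 of 33 genes were higher in p53-/- MEFs under both conditions. The share of all genes higher under both conditions is not given here, so neither this count nor that of HoxB can be set against it.

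**Figure D3:**
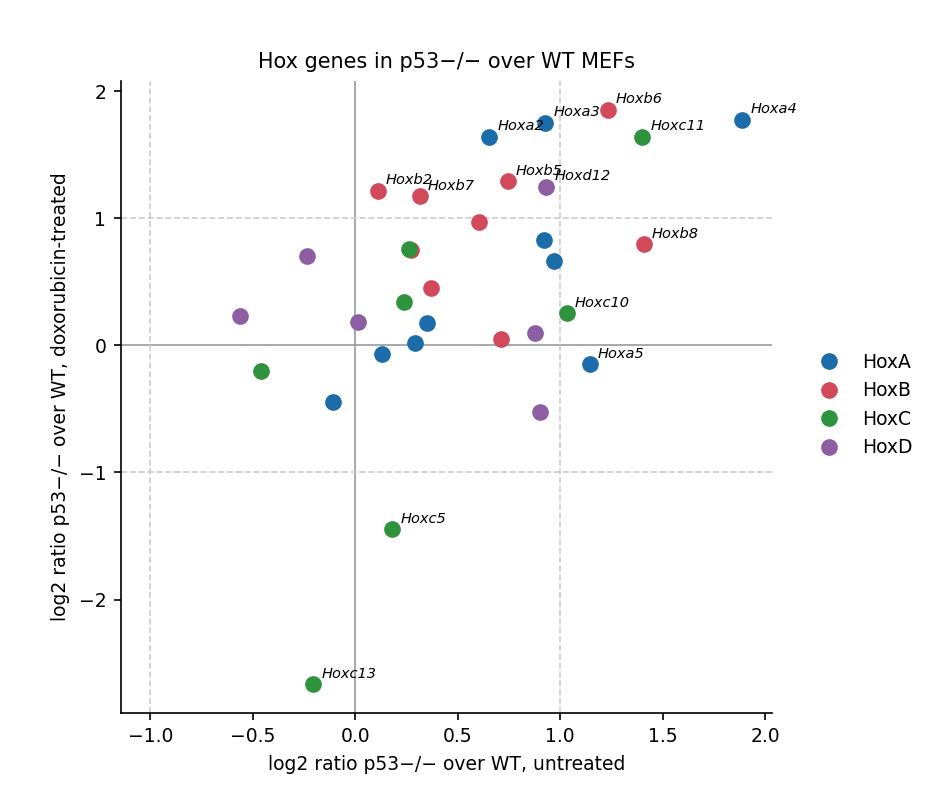
Log2 ratio of p53-/- over WT MEFs with doxorubicin (vertical) against that without (horizontal) for the Hox genes reported here and measured on all 4 arrays, coloured by cluster, with dashed lines at 2-fold and names where either ratio passes it. Most points lie in the upper right, with Hoxa4, Hoxb6 and Hoxc11 past 2-fold on both axes and Hoxc13 and Hoxc5 far below 0 with doxorubicin.

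Of the 33 genes measured on all arrays, 13 stayed under 2-fold in all 4 comparisons: Hoxa6, Hoxa7, Hoxa9, Hoxa10, Hoxa11, Hoxa13, Hoxb4, Hoxb9, Hoxc4, Hoxc6, Hoxc9, Hoxd4 and Hoxd13. The share of all genes with this pattern, or past 2-fold in both genotypes or under both conditions, is not given here. The 13 are therefore listed and not set apart as a group. With array-median scaling 4 of them passed 2-fold downwards with doxorubicin, Hoxc4 in WT, Hoxa10 and Hoxa13 in p53-/- MEFs and Hoxd13 in both, and Hoxa13 did so with quantile normalization too. Among the 13, Hoxa11, which shapes the forearm, was printed 10 times per array and is the best measured member. Its 10 spots lay between 72.7% and 83.6% in untreated WT, 57.9% and 64.4% in doxorubicin-treated WT, 82.5% and 98.4% in untreated p53-/-, and 54.0% and 62.4% in doxorubicin-treated p53-/- MEFs. The treated and untreated spots did not overlap in either genotype. The log2 ratios were -0.39 and -0.59, several times the spot SD of 0.05 to 0.08, a spread of spots and not of cultures. The scanner software's error of these ratios was wider, at 0.20 in WT and 0.21 in p53-/- MEFs. Hoxa9, known from blood stem cells and leukemia, had 2 probes at -0.50 and -1.0 in WT, and at -0.60 and -0.66 in p53-/- MEFs.

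**Figure D4:**
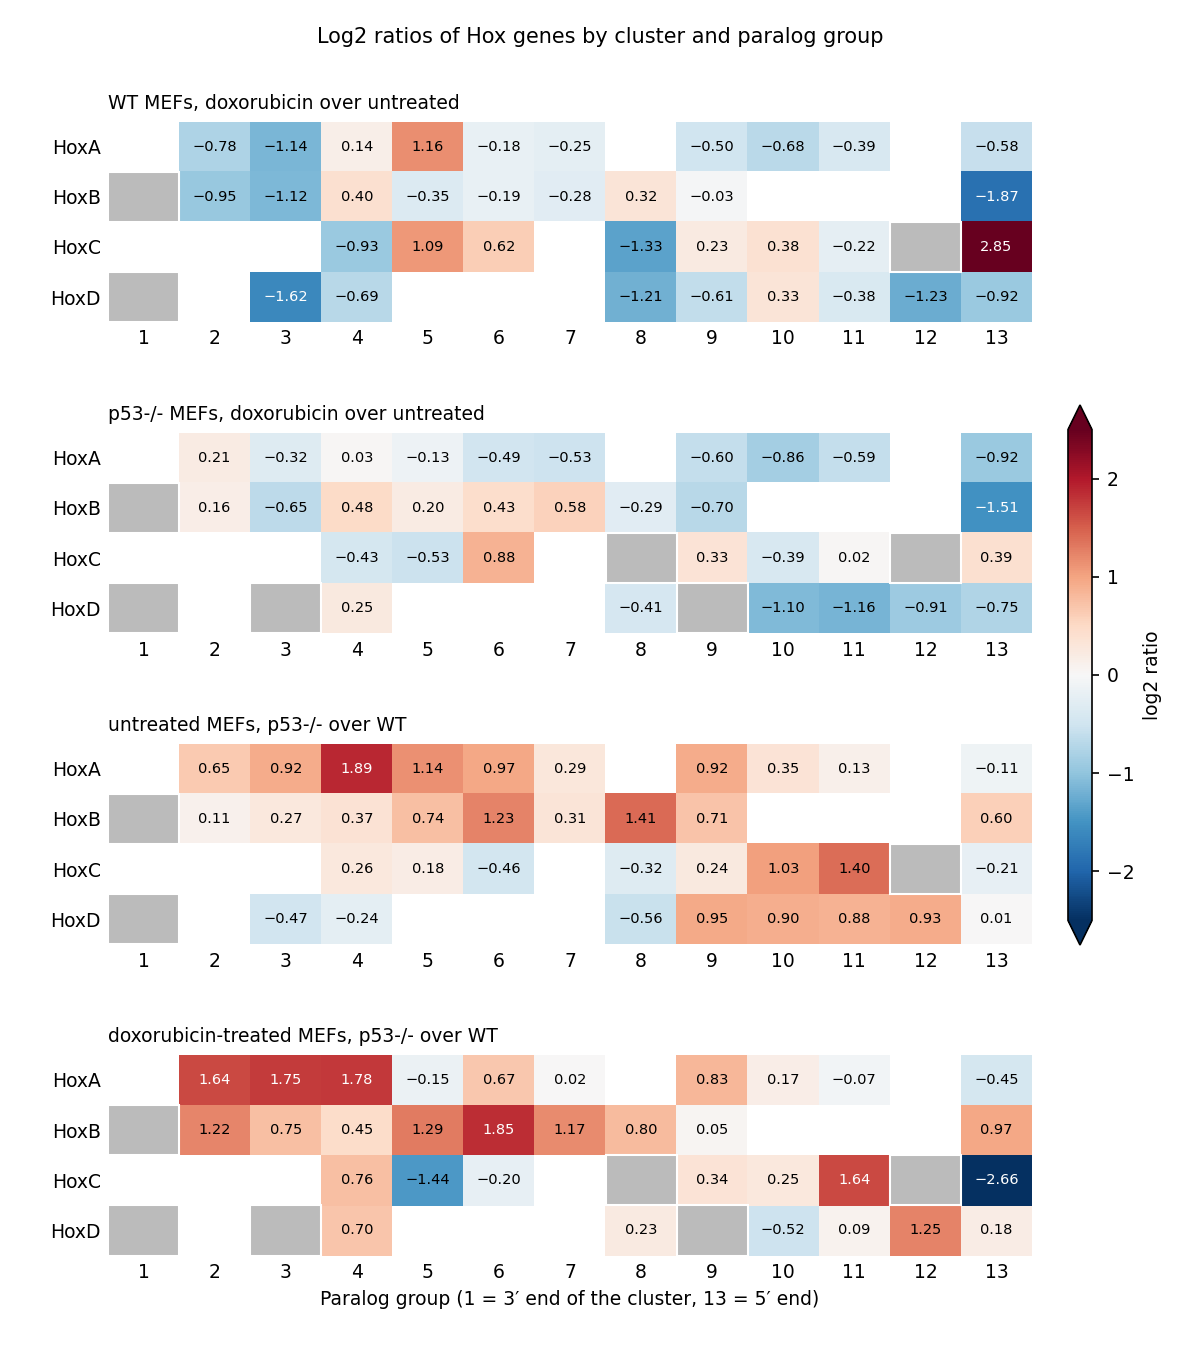
Log2 ratio of the Hox genes in the 4 comparisons, with clusters as rows and paralog groups as columns (red higher, blue lower in the first-named condition, colours saturating at 2.5). Grey cells were not well above background in one or both conditions and white cells have no gene or one not reported here; the upper panels show the blue anterior columns of WT MEFs against the pale ones of p53-/- MEFs, and the lower panels are mostly red.

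Hox proteins bind DNA with partners of the TALE class, the Pbx, Meis and Pknox (Prep) homeodomain proteins. Several of these partners were lower after doxorubicin in both genotypes. Of 9 TALE genes, 8 were measured on all arrays, and 3 in WT and 4 in p53-/- MEFs were at least 2-fold lower with 0 higher. Over all genes, as above, 10.4% were lower in WT and 6.89% in p53-/- MEFs. The TALE median log2 ratios were -0.53 and -0.94, against 0.01 and 0.00 over all genes. Scaling to array medians lowers these and all list medians below by the 0.28 and 0.30 given above. Meis1 read 481% and 225% in WT and 480% and 218% in p53-/- MEFs, and Pbx3 read 223% and 92.4% against 275% and 114%, nearly the same drop in each genotype. Meis2 read 342% and 171% in WT and 414% and 87.1% in p53-/- MEFs. Pknox2 had ratios of -1.30 and -2.02. Pbx2 (-0.00 and -0.63), Meis3 (-0.07 and 0.13) and Pknox1 (-0.01 and -0.04) stayed under 2-fold. Between the genotypes, Pbx4 was 2-fold lower in p53-/- MEFs with doxorubicin, at -1.17, as were 10.3% of all genes. Pbx4 was well above background in the treated cultures only. The count of TALE genes lower there was 1 with normexp, 2 with quantile normalization and 3 with array-median scaling. No TALE gene passed 2-fold between the genotypes without doxorubicin.

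Polycomb proteins keep Hox genes silent where they are not used, in part through methylation of histone H3. Of 28 genes listed, 27 were measured in each comparison. In WT MEFs with doxorubicin 3 were at least 2-fold higher and 4 lower, or 11.1% and 14.8% beside 11.0% and 10.4% over all genes, with a median of -0.18. In p53-/- MEFs none passed 2-fold and the median was 0.05. The lower count in WT was 2 with normexp and 6 with array-median scaling, which also gave 3 lower in p53-/- MEFs. Ezh2, the methyltransferase, read 122% and 52.5% in WT and 226% and 211% in p53-/- MEFs. Cbx2, which binds the mark, read 32.5% and 14.1% against 69.3% and 89.5%, and Phf19, an accessory subunit, read 23.8% and 9.34% against 69.6% and 75.2%. The treated WT culture was the lowest of the 4 for Ezh2, Cbx2 and Phf19. Scmh1 and Pcgf3, also Polycomb proteins, went the other way. Scmh1 read 43.3% and 162% in WT and 51.4% and 34.1% in p53-/- MEFs, and Pcgf3 read 9.58% and 23.3% against 8.97% and 5.80%, so that the treated WT culture was the highest for both. Between the genotypes with doxorubicin, 9 of 27 were higher, 33.3% beside 11.9% over all genes. The 2 lower were Scmh1 and Pcgf3, or 7.41% beside 10.3%. With array-median scaling and with normexp, 7 were higher. Whether these levels bear on the Hox genes was not tested. The opposing Trithorax group and the H3K27 demethylases, 13 of 14 measured, had 0 higher and 1 lower in each genotype with doxorubicin, Dpy30 at -1.01 in WT and Kmt2c at -1.13 in p53-/- MEFs. The medians were -0.22 and 0.02. Dpy30 was under 2-fold with quantile normalization and normexp, and array-median scaling gave 3 lower in WT.

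Retinoic acid, made by Aldh1a enzymes, sets 3′ Hox genes in the embryo, and Cdx proteins act on central ones. Of 19 such genes, 13 were measured in WT and 14 in p53-/- MEFs, with 2 higher and 3 lower, and 2 higher and 1 lower, with doxorubicin, and medians of 0.05 and -0.18. In p53-/- MEFs array-median scaling gave 2 lower and normexp 1 higher. Aldh1a2 read 168% and 56.7% in WT and 278% and 128% in p53-/- MEFs. Aldh1a3 read 46.5% and 166% in WT and 26.3% and 91.6% in p53-/- MEFs, the opposite direction. Rarb, a retinoic acid receptor that is itself induced by retinoic acid, had ratios of 1.33 and 0.46, and Crabp1, which binds retinoic acid in the cytoplasm, -1.94 and -0.94. Cdx2 and Cdx4 were not well above background on any array.

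Other transcription factors also mark position in the embryo. Of 48 listed, 4 were higher and 11 lower in WT among 37 measured, and 3 higher and 7 lower in p53-/- MEFs among 39. These are 10.8% and 29.7% in WT, beside 11.0% and 10.4% over all genes, and 7.69% and 17.9% in p53-/- MEFs, beside 9.24% and 6.89%. The medians were -0.32 and -0.57. Normexp gave 7 lower and a median of -0.20 in WT, and array-median scaling gave 1 higher and 13 lower in p53-/- MEFs. Meox1, a somite gene, read 403% and 19.1% in WT and 333% and 101% in p53-/- MEFs. Prrx1, of limb mesenchyme, had ratios of -2.12 and -1.81, and Tbx5, of the forelimb and heart, had -1.11 and -1.71. Dlx2, of the pharyngeal arches, was at 2.0 in both genotypes. Between untreated genotypes the widest gap was that of Gata4, of heart and gut mesoderm, which read 4.46% in WT and 26.3% in p53-/- MEFs. With doxorubicin 8 of 37 were higher in p53-/- MEFs and 5 lower, beside 11.9% higher and 10.3% lower over all genes.

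The array held 5 of 14 listed noncoding RNAs of the clusters. Hoxb5os, an opposite-strand transcript in HoxB, read 80.8% and 163% in WT and 67.0% and 79.0% in p53-/- MEFs, a ratio of 1.01 in WT that was under 2-fold with array-median scaling and normexp. Hoxaas3, in HoxA, had -0.94 and -0.45, and was 2-fold higher in p53-/- MEFs with doxorubicin, at 1.28. Hoxa11os, opposite Hoxa11, had -0.48 and -0.66, close to the ratios of Hoxa11.

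All 18 fibroblast markers were well above background on every array, but 9 were at least 2-fold lower with doxorubicin in WT and 4 in p53-/- MEFs, with medians of -1.03 and -0.54. In p53-/- MEFs quantile normalization gave a median of -0.28 and 1 higher, and array-median scaling gave 9 lower. Over all genes 10.4% were lower in WT and 6.89% in p53-/- MEFs. Of 7 epithelial markers, 4 were well above background on all arrays. The keratin Krt19 read 179% and 2029% in WT and 232% and 1739% in p53-/- MEFs, Krt18 had ratios of 0.91 and 1.91, and Krt8 had -0.46 and 0.32. Epcam was not well above background on any array and Cdh1 read at most 5.35%. Of 7 neural markers, 5 were well above background on all arrays. Ncam1, an adhesion molecule, had ratios of -1.80 and -2.79 with doxorubicin, and Sox10, of the neural crest, had -1.41 and -1.13. The others stayed under 2-fold: Tubb3 had 0.66 and -0.48, Elavl3 -0.70 and -0.08, and Sox1 -0.21 and -0.05. Sox2 and Pax6 were not well above background on any array. Of 6 endothelial markers 2, Kdr and Pecam1, and of 6 leukocyte markers 4, Itgam, Csf1r, Adgre1 and Ptprc, were well above background on all arrays, and none of these passed 2-fold with doxorubicin. Of 5 muscle markers 1, Des, was so marked, and the endothelial gene Cdh5 and the muscle genes Myod1 and Myf5 were not on any array. The part of these shifts in the Hox differences was not tested.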

How the data were processed

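Total RNA from 4 MEF cultures was labelled with Cy3 and hybridised by the authors to an Agilent Mouse Gene Expression 4x44K v2 array. The deposited intensity values were read from the scanned image with Agilent Feature Extraction 10.7.3.1, per the file headers, which subtracted background and flagged spots within each array; nothing was normalised between arrays. The deposited value table held the same intensity at all 44397 spots. Here, control spots and spots flagged as non-uniform or population outliers were left out (145 to 168 spots per array), repeat spots were averaged on the log2 scale, and each array was scaled to its 75th percentile (1819 to 2421 units). A gene was represented by its brightest probe, named through RefSeq accessions (GRCm38.p6 annotation) for genes other than Hox. Ratios needed a signal well above background in both conditions; otherwise a lower bound, "at least", was computed against the lowest signal well above background on the dim array or the dim probe's own signal, whichever was higher. No spot was saturated. The number of arrays limits the precision.

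With 1 array per condition no test was run, and counts past 2-fold and medians are set beside those of all genes, which are not repeated for every smaller list. The Hox genes, the gene lists and the naming rule (the Hox genes, the TALE cofactors, Trp53, and up to 5 genes per list and comparison by size) were chosen with earlier results of these data known. Genes named as not well above background fall outside that rule and were picked after their values were seen. The normexp correction came from limma 3.58.1 under R 4.3.3, at an offset of 50. All other steps ran in Python 3.11.15, with pandas 2.3.3 and numpy 2.4.6 for the ratios, scipy 1.17.1 for rank correlations, and matplotlib 3.10.9 for plots. Some genes and probe sequences are not reported here, though the genes count in the totals and medians. The calculation of ratios was tested on simulated data.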

Additional observations from a re-analysis of the deposited data

Results flagged for a closer look

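For 5 of the Hox genes reported here the doxorubicin ratio was past 1.2-fold in opposite directions in the 2 genotypes. The ratio in WT minus that in p53-/- MEFs was -0.86 for Hoxb7, which was lower with doxorubicin in WT and higher in p53-/- MEFs. It was 0.61 for Hoxb8, 1.62 for Hoxc5, 0.78 for Hoxc10 and 1.43 for Hoxd10, which were higher in WT and lower in p53-/- MEFs. The signs stayed opposite with array-median scaling, normexp, quantile normalization and averaged probes, although the WT ratios of Hoxb8 and Hoxd10 were only 0.04 and 0.05 with array-median scaling. The share of all genes past 1.2-fold in opposite directions is not given here. By sign alone, the ratios had the same direction for 60.6% of 33 Hox genes and 65.5% of 16513 genes. With 1 array per condition the differences were not tested.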

How the results depend on the processing

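No Hox gene past 2-fold changed direction under any alternative run. The median Hox ratio kept its sign in each comparison throughout. Scaling to array medians gave a median of -0.66 in WT with 1 gene higher and 11 lower, and -0.69 in p53-/- MEFs with 7 lower; relative to all genes the Hox medians were the same as before. Hoxa5 and Hoxc5 were then no longer past 2-fold in WT. Quantile normalization, no filter on dim probes, and a filter at the brightest negative control each gave 5 lower in p53-/- MEFs, and no filter gave 1 higher. Normexp gave 2 lower in WT. The median between treated genotypes, 0.67, was 0.43 with normexp, 0.45 without a filter, 0.44 above the brightest negative control and 0.48 with the mean of a gene's probes. Without a filter the median over all genes rose to 0.23. The Hox median then stood 0.22 above it, against 0.67 in the main run. The anterior minus posterior median of that comparison went from 0.85 to 0.72 without a filter and 0.71 above the brightest negative control. The cause was not tested. At 1.5-fold, 15 were lower in WT, 1 higher and 11 lower in p53-/- MEFs, and 17 higher in p53-/- MEFs both without and with doxorubicin. At 3-fold these were 1 higher and 2 lower in WT, 0 lower in p53-/- MEFs, 1 higher without doxorubicin, and 5 higher and 1 lower with it. Of the values of single genes, bins and rank correlations under all alternatives, 1207 moved by less than the spot SD of a ratio (for a correlation, 0.1) and 180 by more. This split is no measure of stability, because some of the values could not move. The deposited values equalled those of the main run. A filter leaves the ratio of a measured gene unchanged, and array-median scaling cannot change a rank correlation. The HoxA rank correlation in p53-/- MEFs ran from -0.95 to -0.88. Counting negative controls with outlier spots included was added after the data were seen and took Hoxa4 out of the untreated genotype calls and Hoxc8 and Hoxd3 out of those in WT.

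No paired analysis was possible because each condition has 1 array, and the slide could not be fitted because all arrays share it. Differences in cultures, embryos, doses or times cannot be separated from treatment and genotype. Dim genes such as Hoxa4, Hoxc8, Hoxd3 and Hoxd9 lie closest to background and depend most on its correction.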
